A study of Mus musculus with 21 samples.

Results

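Tuft cells of the gall bladder were set against tuft cells of the small intestine, both sorted from mice of 1 reporter strain. The comparison used 6 of the 21 libraries of the series, chosen by their titles: gall bladder libraries 1, 3 and 4 and small intestine libraries 2, 3 and 4. All 43432 gene identifiers of the count tables were considered. The study as a whole measured messenger RNA in tuft cells of 5 tissues and in small intestine epithelium sorted without tuft cells (called non-tuft here). Each of the 6 libraries came from 1 naive male mouse of 12 weeks with the strain label C57BL6.Il25(Flare25/Flare25). Whether 1 mouse gave libraries of both organs was not tested. Flare25 is a fluorescent reporter placed in the Il25 gene, and mice of both groups carried it. The sorting gate took cells negative for the dead-cell dye DAPI and for the leukocyte protein CD45, and positive for the epithelial protein EPCAM and for Flare25. A tuft cell that did not make the reporter was therefore not sampled. Gall bladder libraries 1, 3 and 4 came from 1750, 2200 and 2700 sorted cells, and small intestine libraries 2, 3 and 4 from 36000, 35000 and 35000. Epithelium of both organs was released with the chelator EDTA. The series description states that 1 gall bladder and 1 small intestine tuft replicate were discarded after they failed quality control.

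Tuft cells are rare epithelial cells that carry a tuft of microvilli and sense the contents of hollow organs with the signalling parts of taste cells: G protein-coupled receptors, a phospholipase, intracellular calcium release and the cation channel Trpm5. They release interleukin 25, lipid mediators and acetylcholine, and the transcription factor Pou2f3 is needed for them to form. In the small intestine they sit in a fast-renewing sheet of absorptive, mucus-secreting and hormone-secreting cells and start type 2 immunity to helminths and some protists. In the gall bladder they lie among tall epithelial cells that concentrate bile and make mucin.

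Levels are given as CPM: counts per 1000000 of a library's effective total, which edgeR sets with its trimmed-mean method (TMM). Unless stated otherwise, 3 values in a row are gall bladder libraries 1, 3 and 4 or small intestine libraries 2, 3 and 4, in that order, and n = 3 in each group. A gene was called higher or lower when edgeR's quasi-likelihood test gave a Benjamini-Hochberg adjusted p under 0.05 and the log2 fold change of gall bladder over small intestine was at least 1 in size. Errors of log2 fold changes are approximate standard errors, and those of means are SD. Summed counts ran from 29031373 to 45773963 in gall bladder and from 46846738 to 62268881 in small intestine libraries. Mitochondrial transcripts took 14.8 to 17.0% of counts in gall bladder and 24.1 to 33.5% in small intestine libraries, and the 50 most abundant genes took 25.8 to 27.8% and 37.1 to 46.0%. The correlation of log2 CPM was 0.795 to 0.802 among gall bladder libraries, 0.952 to 0.958 among small intestine libraries and 0.666 to 0.698 between the groups. The relative spread between replicates (biological coefficient of variation) was 1.04 in gall bladder and 0.354 in small intestine tuft, so the group with fewer sorted cells was the noisier. The number of sorted cells and the organ cannot be told apart. Each library was 1 mouse, so p-values measure the spread between single-mouse sorts.

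The gall bladder label was checked against its markers Sox17 and Casr. Sox17, a transcription factor that specifies the biliary tract (ENSMUSG00000025902, GRCm38 chromosome 1, 4490931 to 4497354), was at 63.1, 53.9 and 60.5 CPM in gall bladder and 0.0553, 0 and 0.205 CPM in small intestine tuft. The 3 gall bladder libraries were all high and the groups did not overlap. Its log2 fold change was 9.37 ± 1.09 (edgeR adjusted p = 0.00104). Casr, the calcium-sensing receptor (ENSMUSG00000051980, chromosome 16, 36493696 to 36562141), was at 65.8, 243 and 64.3 against 1.79, 3.19 and 3.08 CPM, a change of 5.53 ± 0.69 (edgeR adjusted p = 0.00134). Gall bladder library 3 stood above the other two for Casr, and every gall bladder library stood above every small intestine library. On a scale set over all 21 libraries, Sox17 was at 69.5 ± 7.78 CPM in gall bladder tuft. It was at 0.0253 ± 0.0505 in colon, 0.0988 ± 0.0758 in thymus and 0.0952 ± 0.18 in trachea tuft (n = 4 in each). All 3 non-tuft libraries were at 0. Each trachea library pooled 4 mice of 12, 14 or 16 weeks and came from 130 to 453 sorted cells. Casr was at 144 ± 115 CPM in gall bladder, 58.5 ± 52.2 in trachea, 40.6 ± 12.1 in thymus, 3.21 ± 0.887 in small intestine and 0.299 ± 0.0782 in colon tuft. It was at 4.77 ± 0.627 in non-tuft small intestine. For Casr, trachea library 1, at 131.8 CPM, lay above gall bladder libraries 1 and 4, at 79.97 and 75.06.

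Of 14430 genes tested, 2901 were called (20.1%), 1399 higher (9.7%) and 1502 lower (10.4%) in gall bladder tuft. Counts of list members below are to be read beside these shares. The libraries of both groups did not overlap for 6096 genes (42.2%), and 4745 (32.9%) had an unadjusted p under 0.05. The median log2 fold change of all genes tested was 0.15. Upper quartile scaling moved that median to -0.12 and the share of calls that were higher from 48.2% to 37.5%. With small intestine library 2, 3 or 4 left out, 477 to 497 genes were called higher and 501 to 537 lower. Without gall bladder library 1, 3 or 4 these counts were 1549 to 1763 and 1704 to 1935. The edgeR fit set 1 spread per gene over both groups, and spread was 1.04 in gall bladder and 0.354 in small intestine tuft. A call lost in such a fit does not by itself show that the fold changed. In bulk RNA, fewer cells of a type and less RNA per cell cannot be told apart, and this holds for every gene below.

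**Figure D1:**
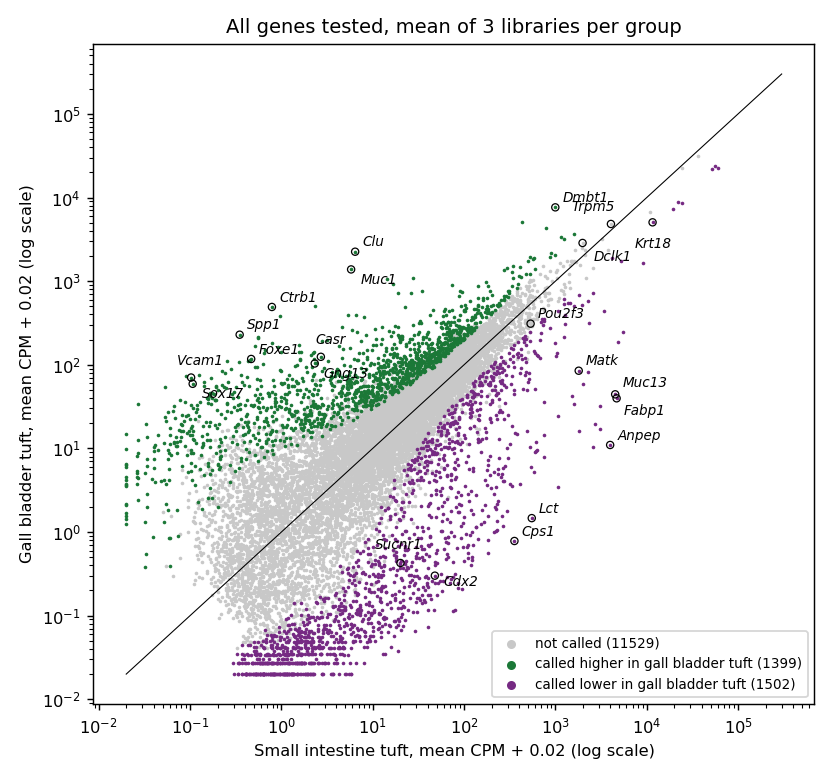
Mean CPM plus 0.02 of each of the 14430 genes tested, small intestine tuft on the horizontal and gall bladder tuft on the vertical axis, both on log scales. Green points are the 1399 genes called higher and purple points the 1502 called lower in gall bladder tuft, the line marks equal levels, and circles mark genes named in the text: Sox17, Muc1 and Clu lie far above the line, Lct, Cps1 and Cdx2 far below it, and Trpm5 and Dclk1 close to it.

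The rankings below left out predicted genes, Xist, Y-linked genes, antigen receptor segments, mitochondrially encoded genes and identifiers without a symbol. Where gall bladder tuft averaged 20 CPM or more and no library overlapped, the 15 remaining called genes with the largest fold were ranked. They were Tcerg1l, Lamb1, Vcam1, Ildr2, Spp1, Togaram2, Sox17, Gja1, Kcnt2, Ctrb1, S100b, Arhgap36, Col4a1, Adamts7 and C4bp. Lamb1 is a laminin chain and Col4a1 a collagen chain of basement membrane, Vcam1 an adhesion molecule for leukocytes, Spp1 the secreted phosphoprotein osteopontin and Gja1 the gap junction protein connexin 43. Spp1 was at 254, 310 and 122 against 0.35, 0.0422 and 0.595 CPM. Vcam1 was at 108, 46.8 and 56.3 against 0.166, 0 and 0.0821 CPM, and Lamb1 at 149, 23.2 and 46.6 against 0.148, 0 and 0.0616. Small intestine libraries held almost none of these transcripts, while gall bladder library 1 was the highest for Lamb1 and Vcam1. Their log2 fold changes were 9.43 ± 0.91, 9.66 ± 1.06 and 9.94 ± 1.27 (edgeR adjusted p = 0.000539, 0.000831 and 0.00153). Col4a1 was even across gall bladder libraries, at 30.3, 24.6 and 28.6 against 0.0553, 0 and 0.0821 CPM. Its neighbour Col4a2, which starts beside it on the opposite strand and encodes the partner chain, was at 44.5, 14.6 and 14.4 against 0, 0.19 and 0.0205 CPM. Both collagen chains were called (edgeR adjusted p = 0.00124 and 0.00672). C4bp, a complement inhibitor, was at 136, 86.8 and 107 against 0.24, 0.148 and 0.308 CPM. Tcerg1l had 4192 counts over the gall bladder and 1 count over the small intestine libraries, a ratio of 5578 after scaling to total counts (95% counting interval 1001 to 2.2e+05).

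By difference in CPM, under the same exclusions and limits of 20 CPM and no overlap, the 5 largest gains were those of Dmbt1, Rn7sk, Clu, Malat1 and Zfp36. Dmbt1, a secreted scavenger receptor protein of mucosal surfaces, was at 7204, 5954 and 9728 against 1031, 943 and 1019 CPM, a log2 fold change of 2.94 ± 0.24 (edgeR adjusted p = 0.000302). Clu, the extracellular chaperone clusterin (ENSMUSG00000022037, chromosome 14, 65968483 to 65981547), was at 2327, 2193 and 2227 against 8.74, 0.886 and 9.56 CPM. Clu was nearly equal in the 3 gall bladder libraries and close to 0 in small intestine library 3. Its log2 fold change was 8.46 ± 0.90 (edgeR adjusted p = 0.000754). Rn7sk and Malat1 are RNAs that stay in the nucleus. Rn7sk was at 6754, 5774 and 2819 against 374, 392 and 531 CPM and Malat1 at 2675, 3247 and 4127 against 1100, 1198 and 1152. Kmt2a and Son, long transcripts of nuclear proteins chosen after their values were seen, were at 1571, 1624 and 2488 against 609, 586 and 567 and 1715, 1249 and 2198 against 471, 490.5 and 549 CPM. The part of RNA quality or of nuclear RNA content in the other differences was not tested. Zfp36 (small intestine 2, 3 or 4 or gall bladder 4) lost its call in edgeR fits without any 1 of the libraries in brackets, with an adjusted p of 0.04 to 0.144, or a log2 fold change under 1 in size.

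Muc1, a mucin that spans the apical membrane (ENSMUSG00000042784, chromosome 3, 89229057 to 89233381), was at 1440, 1222 and 1479 against 6.84, 3.27 and 7.22 CPM. All 3 gall bladder libraries lay above 1000 CPM and all 3 small intestine libraries below 10. Its log2 fold change was 7.90 ± 0.42 (edgeR adjusted p = 0.000192). Muc13, the membrane mucin of the intestine, went the other way at 35, 29.6 and 68.2 against 4840, 4400 and 4298 CPM, a change of -6.67 ± 0.40 (edgeR adjusted p = 0.000192). Of 9 mucin genes tested, 3 rose (Muc1, Muc4 and Muc20) and 3 fell (Muc13, Muc2 and Muc6). That is 33.3% each way, beside 9.7% and 10.4% of all genes. Muc4, a further membrane mucin, was at 396, 258 and 401 against 127, 124 and 126 CPM. Muc20 and Muc6 (small intestine 2, 3 or 4) lost their calls in edgeR fits without any 1 of the libraries in brackets, with an adjusted p of 0.0599 to 0.0876.

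The regulators that mark the biliary tract and the intestine separated the groups in both directions. Of 15 biliary regulators tested, 7 rose (46.7%, beside 9.7% of all genes) and 2 fell (13.3%, beside 10.4%). Their median log2 fold change was 1.41 beside 0.15 for all genes. Hhex, a homeobox factor of liver and bile duct formation, was at 29.9, 26.3 and 65.5 against 0.184, 0.148 and 0.123 CPM, a change of 8.03 ± 0.74 (edgeR adjusted p = 0.00048). Onecut1, also called HNF6, was at 16.4, 19.9 and 64.7 against 0.203, 0 and 0.246 CPM and changed by 7.78 ± 1.33 (edgeR adjusted p = 0.00605). Gall bladder library 4 was the highest for both. The other members that rose were Sox4, Foxa2, Hes1, Klf6 and Sox17, which had been given as a marker of the gall bladder group. Klf6 is also counted among the immediate early genes below. On the scale of 21 libraries Klf6 was at 1148 ± 600 CPM in gall bladder and 1367 ± 173 in colon tuft. Foxa2, a pioneer factor of endoderm, was at 21.9, 40.3 and 33.5 against 1.4, 0.865 and 0.246 CPM, whereas its relative Foxa1 fell and was at 2.44, 0.0946 and 0.493 against 49.9, 30.5 and 27.1. Tbx3, a T-box repressor on the same list, fell too, at 7.05, 1.8 and 4.93 against 224, 261 and 283 CPM (log2 fold change -5.80 ± 0.55, edgeR adjusted p = 0.000515). Sox9, which marks the biliary epithelium as well, was at 756, 678 and 1162 against 481, 525 and 551 CPM and was not called, although its libraries did not overlap. Hes1 (small intestine 2, 3 or 4) and Foxa1 (small intestine 2 or 3) lost their calls in edgeR fits without any 1 of the libraries in brackets, with an adjusted p of 0.0504 to 0.0674.

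Of 20 intestinal regulators tested, 10 fell (50%, beside 10.4% of all genes) and 2 rose (10%, beside 9.7%), with a median log2 fold change of -1.48. Cdx2, the homeobox factor that sets intestinal identity (ENSMUSG00000029646, chromosome 5, 147300805 to 147307270), was at 0.313, 0.126 and 0.403 against 72.9, 32.9 and 37.7 CPM. Every gall bladder library was below 1 CPM and every small intestine library above 30. The log2 fold change was -7.38 ± 0.75 (edgeR adjusted p = 0.000622). Its relative Cdx1 fell less, to 16.5, 26.1 and 25.2 from 78.3, 85 and 99 CPM (log2 fold change -1.95 ± 0.35, edgeR adjusted p = 0.00714). Gata4, a zinc finger factor of the proximal intestine, was at 0.438, 0.158 and 1.43 against 141, 110.1 and 82.9 CPM, while Gata6 was at 37.3, 64.3 and 72 against 76.1, 65.7 and 80.6. Gata4 was called lower and Gata6, whose groups overlapped, was not. Within the HNF4 pair of nuclear receptors, Hnf4g was at 1.17, 6.09 and 5.18 against 162, 174 and 178 CPM and was called lower (log2 fold change -5.37 ± 0.63, edgeR adjusted p = 0.00112). Hnf4a, at 429.7, 174 and 115 against 365, 444 and 458 CPM, was not, and gall bladder library 1 lay within the small intestine range. Isx, Creb3l3, Osr2, Klf4, Vdr and Maf fell as well. Vdr, the vitamin D receptor, was at 50.5, 84.8 and 92.7 against 526, 484 and 386 CPM. Nr5a2, a nuclear receptor gene, was among the members that rose. With small intestine library 2, 3 or 4 left out, 7 to 8 members were called lower and 6 of the biliary list higher. Cdx1 (small intestine 4), Osr2 and Nr5a2 (small intestine 2, 3 or 4), and Klf4 (small intestine 2, 3 or 4 or gall bladder 3 or 4) lost their calls in edgeR fits without any 1 of the libraries in brackets, with an adjusted p of 0.0523 to 0.124.

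Hox genes, which carry positional information along the body axis, were at low levels throughout. Of 11 tested, 9 fell and none rose, with a median log2 fold change of -5.43. Their summed level was 0.473 to 7.46 CPM in gall bladder tuft and 32.7 to 40.7 in small intestine tuft. Hoxa3 was at 0.271, 0.189 and 0.0672 against 6.62, 9.43 and 10.9 CPM. None of the 9 calls was made with small intestine library 2, 3 or 4 left out. Other homeobox and forkhead factors moved both ways. Of 22 forkhead genes tested, 5 rose (22.7%, beside 9.7% of all genes) and 3 fell (13.6%, beside 10.4%). Of 31 homeobox genes outside the Hox clusters, 5 rose (16.1%) and 8 fell (25.8%). In fits without small intestine library 2, 3 or 4, 3 forkhead genes rose and 1 to 2 fell, and 3 to 4 of these homeobox genes rose and 3 to 4 fell. Foxe1, a forkhead factor known from thyroid development, was at 57.8, 137 and 157 against 0.553, 0.274 and 0.513 CPM (log2 fold change 8.02 ± 0.62, edgeR adjusted p = 0.000289). Meis2, a homeobox partner of Hox and Pbx proteins, was at 42.6, 121 and 61.9 against 5.5, 4.39 and 2.91 CPM and rose (edgeR adjusted p = 0.00206). Hoxa3 (small intestine 2, 3 or 4) lost its call in edgeR fits without any 1 of the libraries in brackets, with an adjusted p of 0.0523 to 0.0618.

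**Figure D2:**
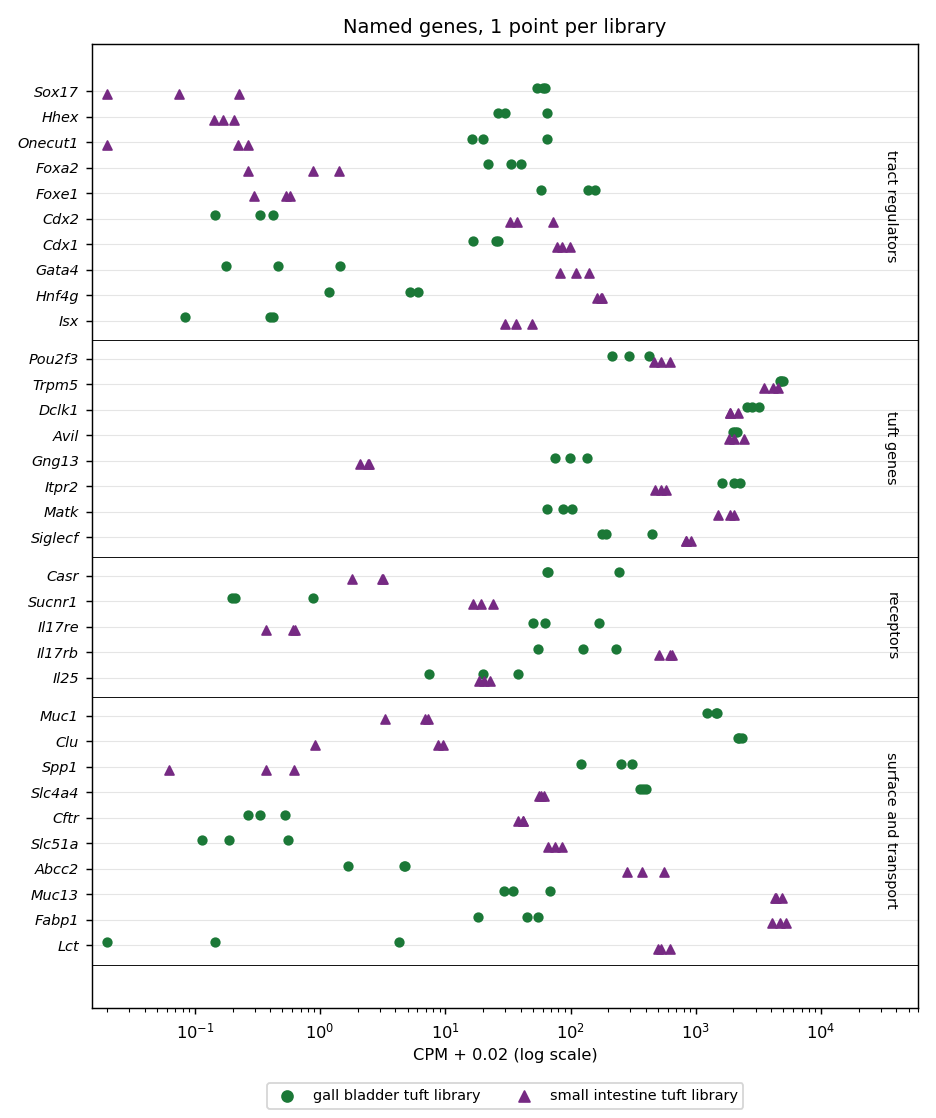
CPM plus 0.02 on a log scale of 33 named genes, with 1 point per library, green circles for gall bladder tuft and purple triangles for small intestine tuft. Regulators such as Sox17 and Cdx2 separate the groups in opposite directions, while Trpm5, Dclk1 and Avil lie close together in all 6 libraries.

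Absorptive genes fell together. Of the 28 enterocyte genes tested, 26 fell and 0 rose, against 10.4% of all genes that were called lower, and the median log2 fold change was -5.68. The exceptions were Slc2a2, the basolateral glucose transporter at 13.1, 25.5 and 87.8 against 123, 94.1 and 83.4 CPM, and Fabp6, the ileal bile acid-binding protein, which lay at 0.25, 5.01 and 0.0896 and 0.0185, 0.612 and 0 CPM. Transcripts of the disaccharidases lactase and sucrase-isomaltase were close to 0 in gall bladder tuft. Lct was at 0.125, 0 and 4.21 against 503, 528 and 622 CPM and Sis at 1.44, 0.631 and 8.11 against 1343, 876 and 998. Gall bladder library 4 held the highest level of both among gall bladder libraries. Their log2 fold changes were -8.55 ± 1.60 and -8.29 ± 1.02 (edgeR adjusted p = 0.00874 and 0.00132). Anpep, the brush border aminopeptidase N, was at 6.4, 2.11 and 24.4 against 5004, 3705 and 3214 CPM. Fatty acid-binding protein genes were among the most abundant transcripts of the small intestine libraries: Fabp1 was at 18.3, 45.3 and 55.4 against 5235, 4071 and 4727 CPM and Fabp2 at 7.36, 3.34 and 20.5 against 2649, 2463 and 2565. Both genes fell (log2 fold changes -6.88 ± 0.48 and -7.94 ± 0.73, edgeR adjusted p = 0.000192 and 0.000468). Apoa1 and Apoa4, apolipoproteins of chylomicrons, kept a higher remainder in the gall bladder, at 264, 77.9 and 393 against 3273, 6046 and 7335 and 218, 45.2 and 293 against 3797, 4797 and 5892 CPM. Gall bladder library 3 was the lowest for both.

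The summed level of the 28 enterocyte genes was 880.2 to 1764 CPM in gall bladder tuft and 34620 to 39268 in small intestine tuft. On the scale set over 21 libraries it was 41033 to 46793 CPM in small intestine tuft, 23730 to 25355 in non-tuft small intestine, 2075 to 2250 in colon tuft and 999 to 2057 in gall bladder tuft. Small intestine tuft libraries held more of it than the reporter-negative cells of the same organ. The part of RNA from neighbouring enterocytes in the small intestine levels was not tested.

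Of the 28 enterocyte genes, 26 had a promoter in the RefSeq table (GRCm38.p6), and these were searched for TTTATNG, letters that CDX proteins such as Cdx1 and Cdx2 are known to bind, on both strands of the 250 bases before the start. The letters were found for 10 of the 26 genes and in 9.81% of all 32851 promoters. A gene counted when any of its promoters held them, so these shares have unlike units. A match is a description of the letters and not evidence of binding. Lct and Anpep, which fell by more than Sis, Fabp1 or Fabp2, were not among the 10 genes with the letters. The promoters of Sis, Fabp1 and Fabp2 are shown because these genes fell by over 6 on the log2 scale beside Cdx2 and hold the letters, which are in capitals. That of Casr, the marker of the gall bladder group, is shown beside them and holds none. All are printed 5′ to 3′ on the strand of the gene, at chr3:72967864-72968113 (minus strand), chr6:71199629-71199878 (plus strand), chr3:122894822-122895071 (plus strand) and chr16:36562135-36562384 (minus strand). Cdx1 (small intestine 4) lost its call in edgeR fits without the library in brackets, with an adjusted p = 0.0523.
Sis: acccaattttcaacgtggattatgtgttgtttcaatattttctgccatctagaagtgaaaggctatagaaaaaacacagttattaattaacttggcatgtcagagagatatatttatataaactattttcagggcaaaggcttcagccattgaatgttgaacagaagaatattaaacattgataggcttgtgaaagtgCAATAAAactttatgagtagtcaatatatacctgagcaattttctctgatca
Fabp1: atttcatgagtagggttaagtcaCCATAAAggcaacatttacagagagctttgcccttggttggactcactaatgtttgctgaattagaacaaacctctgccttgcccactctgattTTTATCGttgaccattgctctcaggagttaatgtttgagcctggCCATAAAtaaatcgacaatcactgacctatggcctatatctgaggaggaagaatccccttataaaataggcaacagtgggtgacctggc
Fabp2: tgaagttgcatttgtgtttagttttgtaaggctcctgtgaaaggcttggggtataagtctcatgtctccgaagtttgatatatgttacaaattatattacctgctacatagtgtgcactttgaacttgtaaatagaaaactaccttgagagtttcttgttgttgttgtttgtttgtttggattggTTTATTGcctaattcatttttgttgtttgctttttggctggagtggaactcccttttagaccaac
Casr: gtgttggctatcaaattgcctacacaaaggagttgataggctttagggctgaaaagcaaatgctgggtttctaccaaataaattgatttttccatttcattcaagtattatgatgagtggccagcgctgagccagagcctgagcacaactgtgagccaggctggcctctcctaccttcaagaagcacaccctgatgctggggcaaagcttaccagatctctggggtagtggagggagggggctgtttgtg

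The Sis promoter held 1 match, read on the opposite strand and beginning 52 bases before the start, and the Fabp2 promoter 1 match 65 bases before it. Fabp1 held 3 matches, the first 227 bases before the start.

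Of 28 genes of drug and xenobiotic metabolism tested, 20 fell and 0 rose, with a median log2 fold change of -5.23. Cyp3a11, a cytochrome P450 that oxidises drugs and bile acids, was at 0.792, 0.725 and 3.83 against 336, 227 and 320.1 CPM (log2 fold change -7.36 ± 0.78, edgeR adjusted p = 0.000738). Adh1, an alcohol dehydrogenase, was at 526, 415 and 390.3 against 4198, 3016 and 3101 CPM, and Gstm1, a glutathione transferase, at 61.6, 98.6 and 77.3 against 793, 426 and 309.6. Neither gene's groups overlapped. Among 41 cytochrome P450 genes tested, 17 fell (41.5%, beside 10.4% of all genes) and 5 rose (12.2%, beside 9.7%). Without small intestine library 2, 3 or 4, 10 to 11 fell and 2 to 3 rose. The 5 that rose were Cyp27a1, Cyp2j13, Cyp2j5, Cyp2s1 and Cyp4x1. Cyp27a1, which hydroxylates sterol side chains in bile acid synthesis, was at 105, 166 and 104 against 13, 22.6 and 14.6 CPM. Urea cycle genes named by rule were nearly silent in gall bladder tuft: Cps1 was at 0.146, 0.0315 and 2.11 against 346, 362 and 359.6 CPM and Otc at 0.0209, 0.0315 and 0.224 against 109, 57.2 and 63.2. Their log2 fold changes were -8.84 ± 1.28 and -9.62 ± 0.96 (edgeR adjusted p = 0.00277 and 0.0006). The other genes with the largest decreases by rule were Ms4a18, Slc5a11, Otop3, Reg3a, Slc23a1, Cyp3a25, Syna, Lct, Knstrn, Aadac, Anpep, Slc7a8 and Gpr155, with log2 fold changes from -9.58 to -8.32. Cyp2j5 (small intestine 2 or 3), Cyp2s1 (small intestine 3 or 4) and Cyp4x1 (small intestine 2, 3 or 4) lost their calls in edgeR fits without any 1 of the libraries in brackets, with an adjusted p of 0.0557 to 0.123.

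Of the 44 tuft core genes, all tested, 3 rose (6.82%, beside 9.7% of all genes), 9 fell (20.5%, beside 10.4%) and 32 passed in neither direction, with a median log2 fold change of 0.13. Trpm5 (ENSMUSG00000009246, chromosome 7, 143069153 to 143094642) was at 4829, 4981 and 4671 against 4509, 4142 and 3508 CPM. The difference was 0.25 ± 0.18 on the log2 scale, turned slightly negative under upper quartile scaling, and was not called (edgeR adjusted p = 0.383). Dclk1, the kinase gene used most to mark tuft cells (ENSMUSG00000027797, chromosome 3, 55242364 to 55539068), was at 2579, 2798 and 3207 against 2192, 1874 and 1880 CPM, and the lineage factor Pou2f3 (ENSMUSG00000032015, chromosome 9, 43123939 to 43210369) at 216, 291 and 424 against 523, 620.4 and 460.3. Gall bladder libraries were all above for Dclk1 and all below for Pou2f3, but neither passed (log2 fold changes 0.53 ± 0.19 and -0.79 ± 0.29, edgeR adjusted p = 0.0856 and 0.0943). The actin-bundling protein gene Avil was at 2146, 1971 and 2054 against 2448, 2015 and 1840 CPM, with overlap between the groups. The summed level of the list was 34034 to 37857 CPM in gall bladder tuft and 39968 to 47337 in small intestine tuft.

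The members that rose were Gng13, Itpr2 and Fyb. Gng13, the gamma subunit of the taste G protein gustducin, was at 136, 75.2 and 99.5 against 2.44, 2.38 and 2.07 CPM, a log2 fold change of 5.49 ± 0.42 (edgeR adjusted p = 0.000289). Itpr2, an inositol trisphosphate receptor that releases stored calcium, was at 2037, 1610 and 2255 against 477, 581 and 527 CPM and changed by 1.90 ± 0.22 (edgeR adjusted p = 0.000964). Neither gene's groups overlapped. The alpha subunit Gnat3 was low in both groups, at 13.5, 4.61 and 24.4 against 45.7, 28.3 and 15.4 CPM, and was not called. Itpr3, the receptor used by taste cells, was at 93.3, 215 and 170 against 124, 129 and 106 CPM and was not called either. Plcb2, the taste phospholipase, was lower at 432, 352 and 208 against 709, 837 and 708 CPM (log2 fold change -1.18 ± 0.29, edgeR adjusted p = 0.0234). Of 14 taste cascade genes tested, 1 rose (Gng13, 7.14%, beside 9.7% of all genes) and 2 fell (Plcb2 and Gna11, 14.3%, beside 10.4%). Fyb and Plcb2 (small intestine 2, 3 or 4 or gall bladder 4) lost their calls in edgeR fits without any 1 of the libraries in brackets, with an adjusted p of 0.0278 to 0.0924, or a log2 fold change under 1 in size.

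Among the 9 tuft core members that fell were Plcb2, Il17rb, Ly6g6d, Kctd12, Siglecf, Cd24a, Sucnr1 and Matk. Several of them encode signalling or surface proteins better known from blood cells. Matk, a tyrosine kinase of blood cells, was at 65, 86.6 and 103 against 1517, 2003 and 1879 CPM, a log2 fold change of -4.41 ± 0.27 (edgeR adjusted p = 0.000192). Siglecf, a sialic acid-binding receptor, was at 177, 193 and 444 against 838, 918 and 835 CPM. Gall bladder library 4 was the highest of its group for Siglecf and Matk, still below every small intestine library. Rac2, the haematopoietic Rac GTPase, was at 319.8, 295 and 309 against 1546, 1182 and 1096 CPM and fell. Lcp1, the leukocyte actin-bundling protein plastin 2, rose instead, at 147, 144 and 154 against 8.84, 5.84 and 11 CPM (log2 fold change 4.12 ± 0.36, edgeR adjusted p = 0.000403), as did the adaptor gene Pstpip1 at 238, 184 and 201 against 41.1, 70.9 and 75.2. Of 28 haematopoietic signalling genes tested, 3 rose (10.7%, beside 9.7% of all genes) and 5 fell (17.9%, beside 10.4%). Without small intestine library 2, 3 or 4, 2 rose and 4 fell. Ptprc, which encodes CD45, was at 139, 144 and 85.7 against 103, 134 and 136 CPM in these cells sorted as CD45-negative, and its groups overlapped. Plcb2 (small intestine 2, 3 or 4 or gall bladder 4), Il17rb (small intestine 2 or gall bladder 4) and Kctd12 (small intestine 4) lost their calls in edgeR fits without any 1 of the libraries in brackets, with an adjusted p of 0.0305 to 0.0766, or a log2 fold change under 1 in size.

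Receptors for luminal compounds moved both ways. Sucnr1, the receptor for the microbial metabolite succinate (ENSMUSG00000027762, chromosome 3, 60081869 to 60087566), was at 0.188, 0.852 and 0.179 against 19.4, 16.7 and 24.2 CPM. Each gall bladder library was below 1 CPM and each small intestine library above 16, and the log2 fold change was -5.64 ± 0.97 (edgeR adjusted p = 0.00606). On the scale of all 21 libraries Sucnr1 was at 0.468 ± 0.432 CPM in gall bladder, 24.1 ± 4.54 in small intestine, 2.72 ± 1.98 in colon, 3.25 ± 1.85 in thymus and 66.6 ± 23.3 in trachea tuft. Of 13 chemosensory receptors tested, 2 rose (Casr and the adhesion receptor gene Adgrg6) and 3 fell (Sucnr1, the short-chain fatty acid receptor gene Ffar2 and Gpr55). As shares, 15.4% rose and 23.1% fell, beside 9.7% and 10.4% of all genes. Gpr55, a receptor for lysophospholipids, was at 4.27, 7.32 and 11 against 69, 96 and 84.1 CPM (log2 fold change -3.46 ± 0.47, edgeR adjusted p = 0.00214). Ffar3, the partner receptor for short-chain fatty acids, was at 404, 174 and 167 against 504, 569 and 503 CPM, and the sweet and umami subunit gene Tas1r3 at 24.5, 10.4 and 46.7 against 9.83, 4.87 and 3.73. Neither was called, although the libraries did not overlap. Of 35 bitter receptor genes, only 1 had enough counts to be tested, and the summed level of the family stayed below 2 CPM in every library. Adgrg6 (small intestine 2, 3 or 4) and Ffar2 (small intestine 2, 3 or 4 or gall bladder 1 or 4) lost their calls in edgeR fits without any 1 of the libraries in brackets, with an adjusted p of 0.0543 to 0.14.

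**Figure D3:**
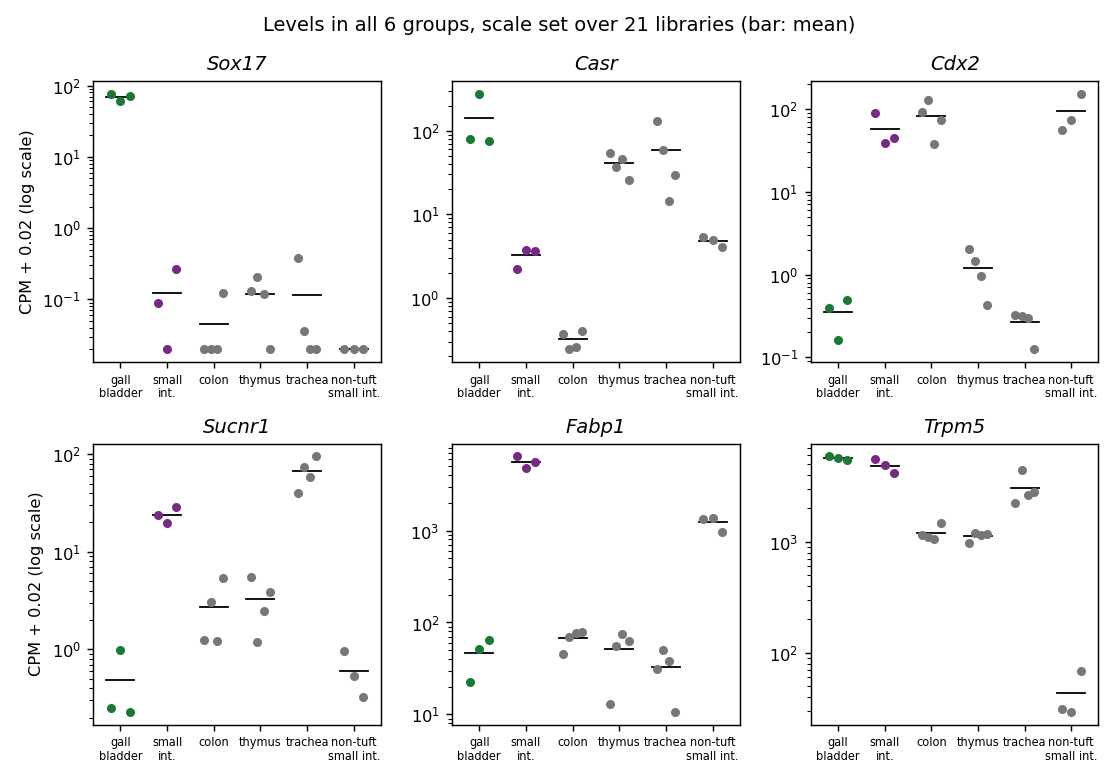
CPM plus 0.02 on a log scale of Sox17, Casr, Cdx2, Sucnr1, Fabp1 and Trpm5 in the 6 groups of the series, scaled over all 21 libraries, with 1 point per library and a bar at the mean of each group. Gall bladder tuft (green) lies above small intestine tuft (purple) for Sox17 and Casr and below it for Cdx2, Sucnr1 and Fabp1, and the 2 groups lie close together for Trpm5.

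No gene for interleukin 25 or for the enzymes that start leukotriene, prostaglandin D or acetylcholine synthesis was called. Il25 (ENSMUSG00000040770, chromosome 14, 54932695 to 54935837) was at 20, 37.8 and 7.33 against 20.4, 22.7 and 18.6 CPM, with a wide spread in the gall bladder. The cells were gated on a reporter in this gene, so its level is a description. Alox5, which starts leukotriene synthesis, was at 1003, 831 and 694 against 871, 756 and 826 CPM, Ptgs1, a cyclooxygenase, at 632, 546 and 771 against 636, 759.9 and 568, and Hpgds, a prostaglandin D synthase, at 107, 83.5 and 136 against 121, 87.5 and 80.3. All 3 overlapped, with log2 differences of 0.04 ± 0.21, -0.01 ± 0.23 and 0.18 ± 0.31. Alox5ap, the partner protein of Alox5, was higher at 1111, 1005 and 833 against 599, 469.8 and 468 CPM, and its difference of 0.94 ± 0.22 lay under the fold threshold (edgeR adjusted p = 0.019). Chat, the acetylcholine-making enzyme, was at 281, 424 and 444 against 279, 295 and 202 CPM and was not called. Of 8 genes of acetylcholine signalling tested, 1 rose and 1 fell, which is 12.5% each way, beside 9.7% and 10.4% of all genes. The muscarinic receptor gene Chrm3 rose, at 13.5, 28.3 and 26.4 against 1.16, 1.27 and 1.05 CPM. Bche, a cholinesterase gene, fell, at 30.5, 76.7 and 89.4 against 337, 214 and 231. Of 21 genes of eicosanoid synthesis tested, 2 rose (Alox12 and Alox12e) and 4 fell (Mgst2, Ggt1, Dpep1 and Ptgis). As shares, 9.52% rose and 19.0% fell, beside 9.7% and 10.4% of all genes. Ggt1 and Dpep1 encode surface enzymes that trim leukotriene C4. Ggt1 was at 1.96, 6.5 and 3.67 against 253, 252 and 308 CPM and Dpep1 at 4.42, 1.01 and 3.83 against 148, 94.5 and 115 (log2 fold changes -6.07 ± 0.51 and -5.27 ± 0.62, edgeR adjusted p = 0.000327 and 0.00112). Of 10 receptors for lipid mediators tested, 0 were called. Bche (small intestine 2), Alox12 (small intestine 2, 3 or 4 or gall bladder 3 or 4), Alox12e (small intestine 2, 3 or 4) and Ptgis (small intestine 2, 3 or 4 or gall bladder 1 or 4) lost their calls in edgeR fits without any 1 of the libraries in brackets, with an adjusted p of 0.0527 to 0.185.

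Receptor chains of the interleukin 17 family moved in opposite directions. Of 20 genes of type 2 cytokines and their receptors tested, 3 rose (15%, beside 9.7% of all genes) and 3 fell (15%, beside 10.4%). Fits without small intestine library 2, 3 or 4 gave 1 to 2 that rose and 1 to 2 that fell. Il17rb, the chain that binds interleukin 25, was at 229.6, 54.8 and 126 against 648, 618 and 506 CPM (log2 fold change -2.11 ± 0.47, edgeR adjusted p = 0.0161). Il17re, the chain that binds interleukin 17C, was at 62.3, 50.4 and 168 against 0.35, 0.591 and 0.616 CPM, a change of 7.49 ± 0.70 (edgeR adjusted p = 0.000498). Their groups did not overlap. Il22ra1, the receptor for interleukin 22, was at 1.13, 1.64 and 1.75 against 46.5, 40.3 and 62.7 CPM and fell (edgeR adjusted p = 0.000678). Il4ra, the chain shared by the receptors for interleukins 4 and 13, rose, at 358, 168 and 223 against 70.9, 70.4 and 70.7 CPM. Of 17 chemokine and inflammatory cytokine genes tested, 2 rose (11.8%, beside 9.7% of all genes) and 5 fell (29.4%, beside 10.4%). With small intestine library 2, 3 or 4 left out, 1 fell. Ccl25, which draws lymphocytes to the small intestine, was at 2.21, 0.0631 and 8.78 against 293, 322 and 330.5 CPM. Cxcl16 was at 70.1, 87.6 and 230.5 against 18.4, 7.36 and 13.8 CPM and Cxcl1, which attracts neutrophils, at 3.33, 20.2 and 62.2 against 0.203, 0.0844 and 0.246. Ccl25 fell (edgeR adjusted p = 0.0106) and Cxcl16 and Cxcl1 rose (edgeR adjusted p = 0.00679 and 0.00644). Il17rb (small intestine 2 or gall bladder 4) and Il4ra (small intestine 3 or 4) lost their calls in edgeR fits without any 1 of the libraries in brackets, with an adjusted p of 0.0501 to 0.0532.

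Some interferon-induced and antigen-presentation genes fell and none rose. Of 24 interferon response genes tested, 9 fell (37.5%, beside 10.4% of all genes), 0 rose and 15 were not called, with a median log2 fold change of -2.37 and a summed level of 849.9 to 1147 CPM in gall bladder tuft and 2085 to 2379 in small intestine tuft. Oas2, an antiviral enzyme gene, was at 168, 119 and 104 against 604, 632 and 639.7 CPM (log2 fold change -2.26 ± 0.25, edgeR adjusted p = 0.00091). Ifi27l2b was at 22, 16.3 and 16.9 against 305, 307 and 381 CPM and the nucleic acid sensor gene Zbp1 at 2, 0.725 and 2.53 against 86.6, 59.4 and 71.3. The groups did not overlap for any of these 3 genes. Irf7 and Stat2 were not called. Of 15 genes of antigen presentation tested, 4 fell (B2m, H2-D1, H2-DMa and Nlrc5), 0 rose and 11 were not called. B2m, the light chain of class I molecules, was at 338, 270.4 and 337 against 2556, 2031 and 2407 CPM, a change of -2.89 ± 0.22 (edgeR adjusted p = 0.000264). H2-D1, a heavy chain, was at 656, 559.9 and 414 against 1197, 1462 and 1439 CPM, and H2-K1 at 979.6, 608 and 889 against 1169, 1507 and 1641 was not called. With small intestine library 2, 3 or 4 left out, 4 interferon genes and 2 presentation genes were called lower. H2-DMa (small intestine 2, 3 or 4 or gall bladder 1 or 4) and Nlrc5 (small intestine 2, 3 or 4) lost their calls in edgeR fits without any 1 of the libraries in brackets, with an adjusted p of 0.0656 to 0.155.

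Genes that move fluid, ions and bile acids split into opposite directions. Of 30 genes of fluid and bicarbonate transport tested, 5 rose (Slc4a4, Car2, Car8, Aqp1 and Ano1) and 5 fell (Cftr, Slc4a5, Slc9a2, Slc26a6 and Aqp3). That is 16.7% each way, beside 9.7% and 10.4% of all genes. Upper quartile scaling gave 9 that fell, and fits without small intestine library 2, 3 or 4 gave 3. Slc4a4, a basolateral sodium bicarbonate cotransporter, was at 398, 377 and 359.8 against 61.6, 57.7 and 56.3 CPM, a log2 fold change of 2.69 ± 0.23 (edgeR adjusted p = 0.000327). Cftr, the chloride and bicarbonate channel of cystic fibrosis, was at 0.313, 0.505 and 0.246 against 38.3, 41.5 and 41.8 CPM and changed by -6.84 ± 0.63 (edgeR adjusted p = 0.000468). Cftr is also a marker of biliary epithelium, and there it fell while 11 others rose. Ano1, a calcium-activated chloride channel, was at 49, 45.5 and 74.4 against 1.03, 0.696 and 2.32 CPM and rose (edgeR adjusted p = 0.00126). Car2, a carbonic anhydrase, was at 422, 116 and 102 against 16.6, 15.4 and 26.8 CPM, and Slc4a9, an anion exchanger named after its values were seen, at 28.1, 144 and 93.1 against 0.406, 0 and 0.369. Gall bladder library 1 was the highest for Car2 and the lowest of its group for Slc4a9. Aqp1, Slc9a2 and Aqp3 (small intestine 2, 3 or 4) lost their calls in edgeR fits without any 1 of the libraries in brackets, with an adjusted p of 0.0644 to 0.107.

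Among the 22 biliary epithelial markers tested, 11 rose (Sox17, Casr, Onecut1, Krt7, Muc4, Aqp1, Spp1, Tff2, Slc10a2, Cldn4 and Anxa5) and 4 fell (Cftr, Ggt1, Slc51a and Slc51b). As shares, 50% rose and 18.2% fell, beside 9.7% and 10.4% of all genes. Sox17 and Casr had been given as markers of the gall bladder group. The list was chosen with earlier results of these data known. Without small intestine library 2, 3 or 4, 7 rose. Anxa5, a calcium-dependent membrane-binding protein, was at 109.8, 177 and 136 against 1.92, 1.22 and 1.52 CPM, a log2 fold change of 6.50 ± 0.42 (edgeR adjusted p = 0.000192). Tff2, a trefoil peptide of mucus, was at 7.3, 14 and 24.3 against 0.0922, 0.0211 and 0.103 CPM. Krt19 and Krt23, keratins of duct epithelium, were at 525, 499 and 388 against 467, 336 and 335 and 153, 207 and 212 against 169, 242 and 225 CPM and overlapped. Slc51a and Slc51b together export bile acids across the basolateral membrane. Slc51a was at 0.167, 0.0946 and 0.538 against 75.5, 66.2 and 86.2 CPM and Slc51b at 0.375, 0.252 and 0.717 against 54.8, 25.7 and 25.8 (log2 fold changes -8.12 ± 0.77 and -6.29 ± 0.76, edgeR adjusted p = 0.000538 and 0.00126). The apical uptake carrier gene Slc10a2 rose at a low level, at 2.02, 8.77 and 5.04 against 0.0185, 0.148 and 0.0821 CPM. Of 18 genes of bile acid sensing and transport tested, 4 rose (22.2%) and 7 fell (38.9%), and 0 to 1 rose with small intestine library 2, 3 or 4 left out. Abcc2, an apical exporter of conjugates, fell, at 4.73, 1.64 and 4.68 against 559.8, 371 and 285 CPM (log2 fold change -6.77 ± 0.55, edgeR adjusted p = 0.000302). Abcc3, its basolateral relative, was at 265, 395 and 359 against 216, 285 and 246 CPM and was not called. Gpbar1, the surface receptor for bile acids, had too few counts to be tested. Krt7, Aqp1 and Slc10a2 (small intestine 2, 3 or 4), and Cldn4 (small intestine 2, 3 or 4 or gall bladder 4) lost their calls in edgeR fits without any 1 of the libraries in brackets, with an adjusted p of 0.0529 to 0.11.

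Junction and cytoskeleton genes gave a further contrast. Of 9 claudins tested, 2 rose (22.2%, beside 9.7% of all genes) and 1 fell (11.1%, beside 10.4%). Cldn2, which forms cation pores, was at 593, 402 and 368 against 52.4, 44.8 and 41 CPM, a log2 fold change of 3.30 ± 0.29 (edgeR adjusted p = 0.000401). Cldn15, the cation-pore claudin of the intestine, was at 2.61, 0.852 and 2.91 against 279, 211 and 201 CPM and changed by -6.75 ± 0.55 (edgeR adjusted p = 0.000302). Cldn4 rose with an uneven spread, at 24.6, 225 and 439 against 19.7, 16.4 and 20.3 CPM. Of 24 cytoskeletal and microvillar genes tested, 4 rose (Plec, Krt7, Ocln and Nefl) and 7 fell (Vil1, Pls1, Myo7b, Cdhr5, Ush1c, Krt18 and Krt20). As shares, 16.7% rose and 29.2% fell, beside 9.7% and 10.4% of all genes. Cdhr5, a protocadherin that links the tips of microvilli, was at 1422, 1598 and 1904 against 10020, 8911 and 8311 CPM, a change of -2.47 ± 0.20 (edgeR adjusted p = 0.000315). Myo7b and Ush1c, which anchor that link, were at 86.9, 162 and 98.2 against 378, 426 and 495 and 28.6, 23 and 36.3 against 116, 158 and 177 CPM. Villin, encoded by Vil1, was at 559, 476 and 530.1 against 1822, 1945 and 2118 CPM. Keratin 18 was the most abundant of these, with Krt18 at 5882, 4449 and 4818 against 12126, 11144 and 11467 CPM (log2 fold change -1.20 ± 0.19, edgeR adjusted p = 0.00383). Its partner Krt8 was at 608, 643 and 635 against 1014, 1066 and 1163 CPM, a difference of -0.78 ± 0.19 that lay under the fold threshold. Nefl, the light neurofilament chain, was at 233, 164 and 337 against 4.19, 5.72 and 10.4 CPM and rose (edgeR adjusted p = 0.000534). Cldn4 (small intestine 2, 3 or 4 or gall bladder 4), Plec (small intestine 3), Krt7 (small intestine 2, 3 or 4) and Ocln (small intestine 2, 3 or 4 or gall bladder 3 or 4) lost their calls in edgeR fits without any 1 of the libraries in brackets, with an adjusted p of 0.0518 to 0.134.

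Genes of the Wnt, Notch and BMP pathways moved both ways: of 29 tested, 6 rose (Wnt4, Wnt5a, Nkd1, Notch2, Jag2 and Hes1) and 5 fell (Axin2, Sfrp5, Id1, Id3 and Smad6). As shares, 20.7% rose and 17.2% fell, beside 9.7% and 10.4% of all genes. Axin2, a feedback target of canonical Wnt signalling, was at 0.208, 0.0631 and 0.157 against 39.7, 34.8 and 22.6 CPM, a log2 fold change of -7.77 ± 0.80 (edgeR adjusted p = 0.000644). Nkd1, another Wnt feedback inhibitor, went the other way at 191, 158 and 97.8 against 8.01, 11.2 and 10.5 CPM (edgeR adjusted p = 0.000551). Wnt5a, a ligand that acts mostly outside the canonical pathway, was at 30.6, 57.4 and 168 against 1.16, 0.802 and 0.923 CPM, with gall bladder library 4 the highest. Jag2, a Notch ligand, was at 80.1, 57.9 and 78.6 against 3.8, 6.94 and 9.17 CPM. Id1 and Id3, targets of BMP signalling, were at 0.271, 2.08 and 2.4 against 47.5, 35.3 and 41.2 and 3.9, 6.94 and 6.09 against 95.2, 65.9 and 80.2 CPM. Hbegf, an EGF receptor ligand, rose, at 257, 369 and 720 against 85.8, 55.5 and 77.7 CPM (log2 fold change 2.62 ± 0.41, edgeR adjusted p = 0.00407). Rasgrf1 and Rasgrp3, activators of Ras proteins from the family of Ras regulators, were at 84.3, 153 and 411 against 0.221, 0.169 and 1.23 and 101, 100 and 36.4 against 0.369, 0.0211 and 0.267 CPM. Wnt4, Notch2, Hes1, Sfrp5 and Smad6 (small intestine 2, 3 or 4) lost their calls in edgeR fits without any 1 of the libraries in brackets, with an adjusted p of 0.0562 to 0.108.

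Of 32 potassium channel genes tested, 6 rose (18.8%, beside 9.7% of all genes) and 4 fell (12.5%, beside 10.4%). Fits without small intestine library 2, 3 or 4 gave 3 that rose and 1 that fell. Kcnn4, a calcium-activated potassium channel, was at 205, 169.8 and 427 against 15.1, 6.48 and 9.77 CPM, a log2 fold change of 4.68 ± 0.51 (edgeR adjusted p = 0.00083). Kcnh2 was at 11.3, 25.7 and 77.8 against 0.148, 0.148 and 0.205 CPM and Kcnt2 at 67.2, 10.7 and 17.5 against 0.0185, 0 and 0.123. Gall bladder library 4 was the highest for Kcnn4 and Kcnh2, and library 1 for Kcnt2. The solute carrier family, 260 genes tested, held 21 members that rose (8.08%, beside 9.7% of all genes) and 60 that fell (23.1%, beside 10.4%). With small intestine library 2, 3 or 4 left out, these counts were 7 to 8 and 32 to 38. Its members with the largest decreases included the sugar and amino acid carriers Slc5a11 at 0, 0 and 0.157 against 47, 40.2 and 34.7 CPM and Slc7a8 at 0.542, 0.0631 and 1.01 against 211, 189.8 and 147.

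Calcium handling, sterol and matrix genes held called members in both directions. Of 24 calcium handling genes tested, 4 rose (Casr, Atp2a2, Ryr1 and Orai3) and 4 fell (among them Ryr3, Orai2 and Cacna1d). That is 16.7% each way, beside 9.7% and 10.4% of all genes. Without small intestine library 2, 3 or 4 1 rose and 0 to 1 fell, and upper quartile scaling left 1 that rose. The store-operated channel genes Orai3 and Orai2 changed in opposite directions, Orai3 at 66.8, 61.6 and 59.3 against 31.1, 18.2 and 14.9 CPM and Orai2 at 8.42, 4.16 and 3.88 against 34.1, 20.8 and 22.9. Of 23 genes of cholesterol synthesis and uptake tested, 4 rose (among them Pmvk, Sqle and Cyp51) and 1 fell. As shares, 17.4% rose and 4.35% fell, beside 9.7% and 10.4% of all genes. Without small intestine library 2, 3 or 4, 1 to 2 of them rose and 0 fell. Sqle, an oxidase of sterol synthesis, was at 434, 389 and 276 against 121, 132 and 119.9 CPM, a log2 fold change of 1.56 ± 0.25 (edgeR adjusted p = 0.00458), and its groups did not overlap. Of 13 collagen genes tested, 4 rose (Col4a1, Col4a2, Col4a5 and Col6a6) and 2 fell (Col18a1 and Col25a1). As shares, 30.8% of these collagen genes rose and 15.4% fell. Of 8 SOX factors tested, 3 rose (Sox17, Sox4 and Sox7), a share of 37.5%, and 0 fell. Sox4, a factor of progenitor cells, was at 122, 54.7 and 103 against 9.43, 12.6 and 15.8 CPM and Sox7, a close relative of Sox17, at 1.23, 19.1 and 10.7 against 0.369, 0.0422 and 0.0205. Gall bladder library 1 was the highest for Sox4 and the lowest of its group for Sox7. Atp2a2 (small intestine 2, 3 or 4 or gall bladder 4), Ryr1 and Cyp51 (small intestine 2, 3 or 4 or gall bladder 1), Orai3, Orai2, Cacna1d, Pmvk, Col4a5, Col6a6 and Col25a1 (small intestine 2, 3 or 4), Ryr3 and Col18a1 (small intestine 2, 3 or 4 or gall bladder 1 or 4), Sqle (small intestine 4), and Sox7 (small intestine 2, 3 or 4 or gall bladder 3) lost their calls in edgeR fits without any 1 of the libraries in brackets, with an adjusted p of 0.0352 to 0.199, or a log2 fold change under 1 in size.

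The immediate early genes, which are induced within minutes by handling or stimulation, held several members that rose in gall bladder tuft. Of 25 tested, 12 rose and 1 (Hspa1b) fell, against 9.7% of all genes called higher, and the median log2 fold change was 1.17. Their summed level was 10271, 15319 and 24408 CPM in gall bladder and 6806, 6149 and 5975 CPM in small intestine libraries. Gall bladder library 4 was the highest in this sum. Nr4a1, an orphan nuclear receptor gene, was at 204, 742 and 1192 against 33.6, 24.7 and 20.3 CPM, a log2 fold change of 4.77 ± 0.63 (edgeR adjusted p = 0.00186). Fosl1, an AP-1 subunit, was at 175, 184 and 217 against 8.89, 11.3 and 2.09 CPM and Atf3, a stress-induced factor, at 426, 781 and 994 against 139.6, 61.5 and 81.5. Fos and Jun, the best-known AP-1 subunits, were at 299.6, 549.5 and 623 against 269.9, 246 and 262 and 757, 1072 and 2106 against 866, 848 and 904 CPM and were not called. The heat shock genes Hspa8 and Dnajb1 were not called either. The other members that rose were Fosb, Egr1, Egr2, Egr3, Ier3, Dusp1, Zfp36, Klf6 and Btg2, and upper quartile scaling left 9 of the 12 calls. On the scale of 21 libraries the summed level was 12482 to 28470 CPM in gall bladder tuft, 7120 to 8322 in small intestine tuft, 21144 to 25588 in colon tuft and 14348 to 16649 in non-tuft cells. The part of cell preparation in the other differences was not tested. Hspa1b (small intestine 2, 3 or 4 or gall bladder 1), Egr1 and Egr3 (small intestine 2, 3 or 4 or gall bladder 3 or 4), Dusp1 (small intestine 3 or 4), and Zfp36 (small intestine 2, 3 or 4 or gall bladder 4) lost their calls in edgeR fits without any 1 of the libraries in brackets, with an adjusted p of 0.04 to 0.195, or a log2 fold change under 1 in size.

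Of 27 proliferation genes tested, 11 fell (40.7%, beside 10.4% of all genes), 0 rose and 16 were not called, with a median log2 fold change of -4.09. Mki67, a marker of cycling cells, was at 0.646, 8.26 and 13 against 228, 184 and 136 CPM (log2 fold change -4.64 ± 0.93, edgeR adjusted p = 0.0113), and Top2a at 0.0625, 0.0631 and 1.23 against 65.1, 63.5 and 59.2. Gall bladder library 1 was the lowest for Mki67. The summed level of the list was 77.5 to 133 CPM in gall bladder tuft and 580.0 to 824 in small intestine tuft, and on the scale of 21 libraries it was 2779 to 3623 CPM in non-tuft small intestine. The count of members called lower ran from 6 to 19 over the alternatives, and it was 6 to 8 with small intestine library 2, 3 or 4 left out. Of 7 intestinal stem cell markers tested, 3 fell (Olfm4, Smoc2 and Axin2), and 1 with 1 of those libraries left out. Mitochondrially encoded transcripts fell in 7 of 8 tested, while 5 of the 13 listed had 0 counts in gall bladder tuft and too few in small intestine tuft to be tested. The part that read assignment played in these mitochondrial values was not tested. The respiratory chain subunit gene mt-Nd4 was at 8486, 8709 and 8929 against 32697, 19946 and 21097 CPM. With the library totals counted without mitochondrial genes, 1362 genes were called higher and 1529 lower. Olfm4 (small intestine 2, 3 or 4 or gall bladder 1 or 3) and Smoc2 (small intestine 2, 3 or 4) lost their calls in edgeR fits without any 1 of the libraries in brackets, with an adjusted p of 0.0664 to 0.0997.

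**Figure D4:**
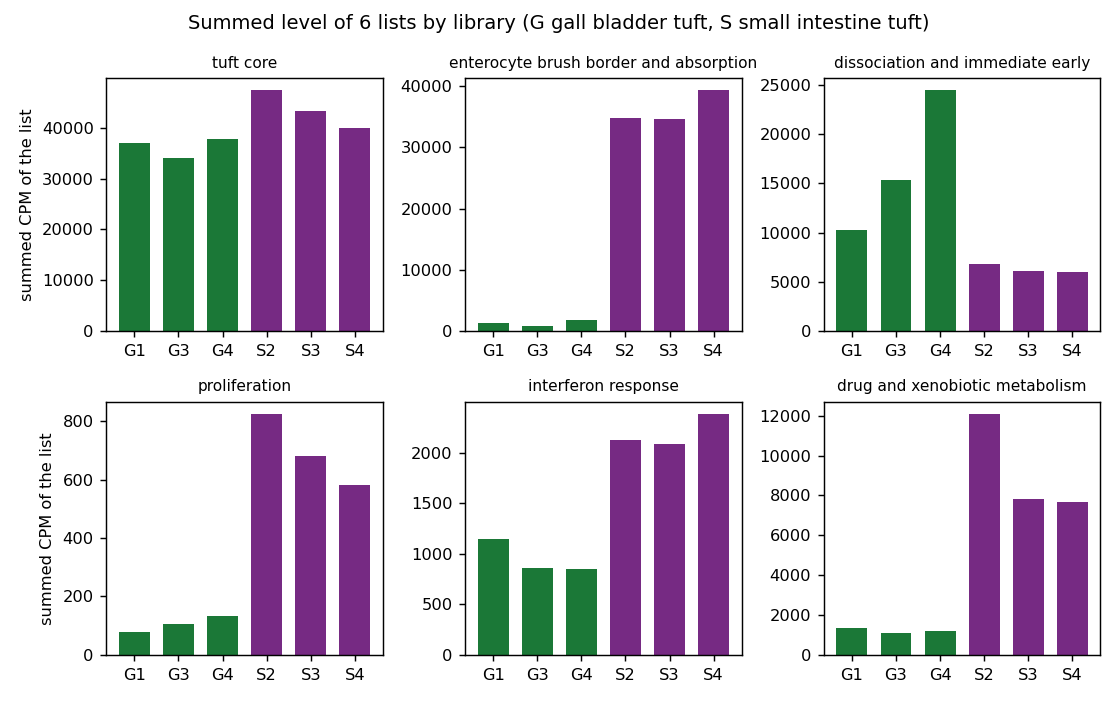
Summed CPM of 6 gene lists in gall bladder tuft libraries 1, 3 and 4 (G1, G3, G4, green) and small intestine tuft libraries 2, 3 and 4 (S2, S3, S4, purple), on linear axes from 0. The tuft core sums lie between 34034 and 47337 in all 6 libraries, the immediate early sum is highest in G4, and the enterocyte, proliferation, interferon and xenobiotic sums are lower in each gall bladder library than in any small intestine library.

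Of 13 goblet cell markers tested, 6 fell and 1 (Creb3l1) rose, and Muc2, the gel-forming mucin of the intestine, was at 104, 18.4 and 29.7 against 526, 638 and 607 CPM. Of 19 enteroendocrine markers, 11 fell and 0 rose, with the granule protein gene Chgb at 12, 3.03 and 3.29 against 161, 403 and 284 CPM. Of 9 Paneth cell markers, 5 fell (55.6%) and 1 (Mmp7) rose (11.1%). Mmp7, a matrix protease, was at 57.3, 87.6 and 117 against 4.83, 1.73 and 6.03 CPM, while the lysozyme gene Lyz1 was at 1.15, 0.315 and 1.32 against 93.9, 37.5 and 180.5. With small intestine library 2, 3 or 4 left out, 3 to 4 goblet, 3 to 6 enteroendocrine and 3 to 4 Paneth markers were called lower. The summed levels were 367 to 790.2 CPM in gall bladder tuft and 1853 to 2280 in small intestine tuft for goblet markers, and 34.1 to 96.8 CPM in gall bladder tuft and 438 to 1140 in small intestine tuft for enteroendocrine markers. Paneth markers summed to 106 to 151 CPM in gall bladder tuft and 232 to 821 in small intestine tuft. Mmp7 alone gave 57.3, 87.6 and 117 CPM of gall bladder sums of 150.9, 105.8 and 141.7. On the scale of 21 libraries the non-tuft cells held 104024 to 114083 CPM of goblet, 11596 to 16372 of enteroendocrine and 12769 to 17018 of Paneth markers. Creb3l1 (small intestine 3 or 4) lost its call in edgeR fits without any 1 of the libraries in brackets, with an adjusted p of 0.0603 to 0.0635.

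Single genes on the pancreatic and liver lists rose in gall bladder tuft. Ctrb1, the pancreatic protease chymotrypsinogen B, was at 869, 502 and 103 against 1.97, 0 and 0.328 CPM and was highest in gall bladder library 1. Of 10 acinar markers, 8 could not be tested, 6 had 0 counts in all gall bladder libraries and 8 had 0 in all small intestine libraries. Ttr, the transport protein transthyretin made by liver, was at 158, 104 and 132 against 1.6, 2.05 and 2.58 CPM (log2 fold change 5.98 ± 0.41, edgeR adjusted p = 0.000192). Of 15 hepatocyte markers listed, 14 were in the files and 4 had 0 counts in the gall bladder. Of 4 tested, 1 rose and 2 fell. The list summed to 104 to 158 CPM in gall bladder and 351 to 366 in small intestine tuft. Nearly all of the gall bladder sum was Ttr. Nearly all of the small intestine sum was Cps1, at 346, 362 and 359.6 CPM. Alb, the albumin gene that defines hepatocytes, was at 0.0417, 0 and 1.43 and 0.111, 0 and 1.21 CPM. Tek, the angiopoietin receptor of endothelium, was at 158, 369.7 and 85.2 against 21.7, 15.9 and 25.2 CPM and rose (edgeR adjusted p = 0.0054). The endothelial genes Cdh5, Kdr and Emcn had too few counts to be tested, and Pecam1 was at 0, 0.0315 and 0 against 0.941, 1.18 and 1.27 CPM. S100b, on the list of neural and glial markers, was at 75.1, 12.2 and 24.8 against 0.0922, 0 and 0.0821 CPM. Of the 8 genes on that list 2 were tested and 4 had 0 counts in all gall bladder libraries. Markers of T cells fell in 3 of 5 tested, and in 0 with small intestine library 2, 3 or 4 left out. The 8 listed summed to 17.6 to 36.8 CPM in gall bladder and 19.1 to 26.3 in small intestine tuft, with overlap. Cd3e, which defines T cells, was at 0, 0 and 0.224 against 12.2, 7.22 and 7.55 CPM. B and plasma cell markers summed to 26.7 to 101 CPM in gall bladder and 3.06 to 6.05 in small intestine tuft. Of the 2 tested, 1 rose. Of 8 myeloid markers tested, 2 rose (Cd68 and Cd14) and 2 fell (Tyrobp and Fcer1g). The summed airway secretory level was 53.6 to 587 CPM in gall bladder tuft and 74.4 to 206 in small intestine tuft, and Scgb1a1, which defines club cells of the airway, was at 205, 0.284 and 0.627 and 55.4, 28.7 and 0.205 CPM, with gall bladder library 1 and small intestine library 2 the highest of their groups. The part of RNA from other cells in these levels was not tested. Pecam1, Cd3e, Cd68, Cd14 and Fcer1g (small intestine 2, 3 or 4) lost their calls in edgeR fits without any 1 of the libraries in brackets, with an adjusted p of 0.0503 to 0.121.

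**Figure D5:**
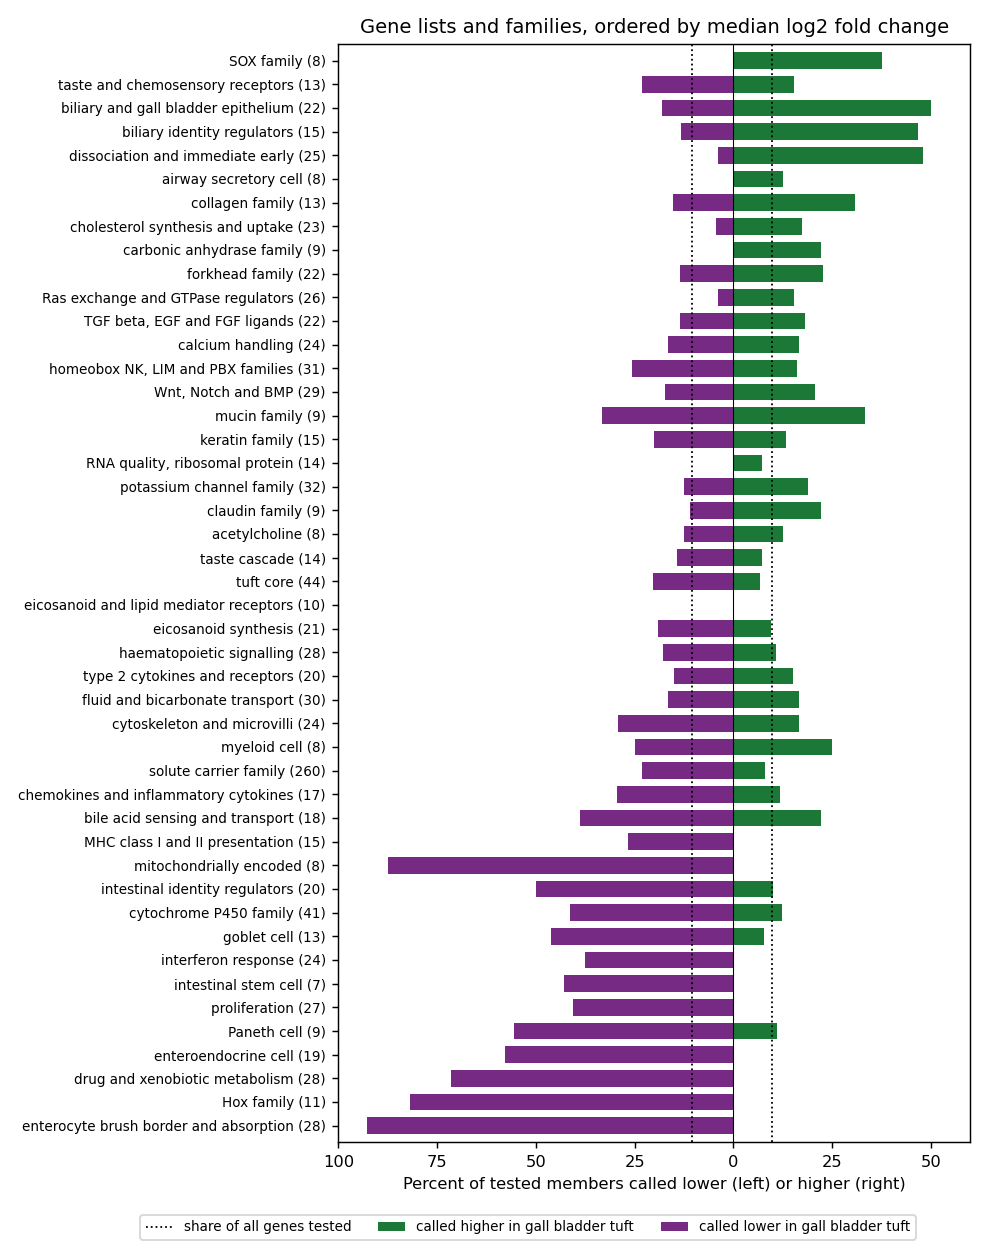
Share of tested members called higher (green, to the right) or lower (purple, to the left) in gall bladder tuft for gene lists and families with at least 7 tested members, ordered by median log2 fold change, with the number tested in brackets. Dotted lines mark the 9.7% and 10.4% of all genes tested that were called higher and lower: enterocyte, mitochondrially encoded, Hox and xenobiotic genes lie far beyond the lower line, and biliary markers, biliary regulators and immediate early genes beyond the upper line.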

How the data were processed

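RNA was captured on oligo(dT) beads, amplified (NuGEN Ovation) and tagged with the Nextera XT kit, as the labels' protocols state. The authors deposited raw read counts per gene, 1 table per library. STAR, DESeq2 and the build GRCm38 appear in the submitters' processing notes. For the assignment of reads to genes, the tool, strand setting and annotation were not given in the sources used here, so overlapping genes cannot be told apart. No molecular identifiers were used, so counting intervals cover counting error only. Symbols and GRCm38 positions came from GENCODE M21, which held 42548 of the 43432 identifiers; the 884 others took 0.0856% of counts. Genes with enough counts (edgeR's filterByExpr) were fitted on the 6 libraries with TMM scaling and edgeR's quasi-likelihood test, with Benjamini-Hochberg adjustment over all 14430. Standard errors are the log2 fold change divided by the square root of F. The steps were tested on simulated data.

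Named genes are the 15 with the largest log2 fold change and the 5 with the largest CPM difference each way (called, at least 20 CPM in the higher group, no overlap), with list members. The members and lists were chosen with earlier results of these data known. Alternatives covered other scalings, filters, tools (DESeq2, limma voom), a replicate block and leaving out each library. Levels in other groups use a scale over all 21 libraries and carry no test. Some genes of the lists are not reported here by name. Promoters came from a RefSeq table, which had no entry for Sox17. R 4.3.3, edgeR 4.0.16, limma 3.58.1 and DESeq2 1.42.0 were used.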

Additional observations from a re-analysis of the deposited data

How the results depend on the processing

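The numbers of called genes fell most with a small intestine library left out and rose with a gall bladder library left out. Leaving out each of the 6 libraries in turn gave 477 to 1763 genes called higher and 501 to 1935 lower, against 1399 and 1502 with all 6. Without small intestine library 2, 3 or 4 the counts were 491, 477 and 497 higher and 501, 537 and 521 lower, and nearly all of these genes were among the main calls (490, 477 and 494 higher; 499, 536 and 520 lower). A filter of 5 CPM in 3 libraries left 9846 genes, of which 958 were lower. Upper quartile scaling gave 1053 higher and 1754 lower. DESeq2 gave 2070 and 1952, and limma voom with 1 weight per group, chosen after the spread of both groups had been seen, gave 1456 and 1471. Apart from these and from the replicate block given below, the settings run kept both counts within 1.5 times. The median log2 fold change of all genes moved from 0.15 to -0.12 with upper quartile scaling, 0.28 with library totals, -0.24 with limma voom and -0.23 with the replicate block.

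Numbers 3 and 4 occur in both groups. The deviations of same-numbered libraries correlated at 0.0252 and 0.0732 across genes, and those of differently numbered libraries at -0.0428 to 0.021. Whether same-numbered libraries share more than a number was not tested. With the replicate block, which uses the pairs 3 and 4, 704 genes were called higher and 649 lower, and in a fit of all 18 tuft libraries 1114 and 1316.

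Of 207 named genes that were called, 136 kept the call in every alternative, 64 lost it with a small intestine library left out, 21 with a gall bladder library left out and 51 with the block. None of these 207 changed sign in the 20 alternatives. Of 32 named genes not called, the following did. Upper quartile scaling gave -0.016 for Trpm5, -0.15 for Il25, -0.22 for Alox5 and -0.10 for Hpgds. Library totals gave 0.11 for Avil, 0.11 for Ptgs1 and 0.12 for Ptprc, and the 5 CPM filter -0.028 for Alox5. With the replicate block Il25 was at -0.30, Alox5 at -0.057, Avil at 0.063 and Scgb1a1 at -2.61, and in the fit of 18 libraries Il25 was at -0.20 and Scgb1a1 at -0.85. Limma voom with sample weights gave -0.35 for Il25, 0.0044 for Avil and -1.42 for Scgb1a1, and with group weights -0.29 for Il25 and -0.82 for Scgb1a1. With 1 library left out, Il25 ranged from -0.57 to 0.49, Alox5 from -0.13 to 0.17, Avil from -0.23 to 0.013, Hpgds from -0.055 to 0.35, Ptgs1 from -0.21 to 0.11 and Ptprc from -0.22 to 0.19. Fabp6 ranged from -0.28 to 7.15 and Scgb1a1 from -5.92 to 2.14, so neither has a direction. The causes were not tested. Where a group had 0 counts, counting error allows up to 3 counts, and no fold was given.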
